A study of Mus musculus with 12 samples.

Results

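Mitosis and kinetochore genes were followed in mouse hearts after acute myocardial infarction (AMI). The 59 genes encode the proteins that start mitosis, build the spindle, hold chromosomes to it at the kinetochore, and divide the cell. They were taken by gene symbol from a written list that was chosen with earlier results of these data known. Of the 59, 59 were among the 53801 genes in the tables. Hearts came from C57BL/6N mice, which the methods give as males of 10 to 14 weeks, in 3 groups of 4 hearts with 1 library per heart. AMI was made by permanently tying off the left anterior descending coronary artery, and hearts were taken 1 day later (day 1 AMI) or 7 days later (day 7 AMI). The third group had sham surgery, at a time before the hearts were taken that the sources used here do not give. No group carried a transgene or a knockout. RNA came from hearts rather than from sorted cells, so a higher level can come from more cells that express a gene or from more RNA per cell, and in the same way fewer cells of a type and less RNA per cell cannot be told apart.

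The genes work in sequence. Cyclin-dependent kinase 1 (CDK1) joins cyclins A and B to begin mitosis, the Aurora and Polo kinases direct the spindle, the kinetochore ties each centromere to microtubules, and the spindle assembly checkpoint holds the anaphase-promoting complex until every chromosome is attached. The complex then sends securin and the cyclins to the proteasome, sister chromatids part, and the midzone and contractile ring divide the cell. In dividing cells most of these genes are transcribed together in G2 and mitosis. In resting cells they are repressed by DREAM, a complex of MuvB proteins, E2F4 or E2F5 and a pocket protein, and in cycling cells MuvB acts with B-MYB and FOXM1 to activate them. Adult cardiomyocytes divide rarely, and after AMI the cells known to divide in the heart include fibroblasts, macrophages and endothelial cells.

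Each library held between 23204551 and 32166517 counts. TMM scaling in edgeR, which keeps a few abundant transcripts from distorting all others, was applied. Levels are given as CPM, in which counts are divided by the TMM-scaled library size, so that CPM totals differ between libraries. The TMM factors ran from 0.781 in the first sham heart to 1.171 in the fourth day 7 AMI heart. A gene was called higher or lower if its fold change (FC) was at least 2 and its false discovery rate (Benjamini-Hochberg) below 0.05 in edgeR's quasi-likelihood test over the 15306 genes that passed a filter on low counts. All 59 of the mitosis and kinetochore genes passed that filter, which a gene can pass through one group alone. Errors of log2 FCs are standard errors (SE), errors of CPM are SD over 4 hearts, and hearts are given in the order of their replicate numbers. A count of 3, taken as the floor of a library, was 0.0895 to 0.156 CPM and covers counting error only. The summed level of 10 cardiomyocyte markers ran from 83400 to 98100 CPM in sham hearts, 52900 to 65000 in day 1 AMI and 45800 to 53300 in day 7 AMI. That of 8 fibroblast markers ran from 1030 to 1290, 1510 to 2040 and 6830 to 12500, and that of 8 monocyte and macrophage markers from 170 to 265, 313 to 430 and 402 to 647. That of 7 neutrophil markers was 2.77 to 58.2, 48.2 to 171 and 8.35 to 39.4 CPM. That of 8 endothelial markers was 901 to 1050, 792 to 837 and 1220 to 1370 CPM. Such sums follow the most abundant markers. At a false discovery rate below 0.05 with no FC minimum, 5 of the 8 fibroblast markers were higher and 2 lower on day 1. Of all genes tested, 22.0% and 19.9% were. The median log2 FC of the 8 fibroblast markers was 0.411 on day 1 and 1.86 on day 7. No marker of the 10 cell types examined was at 0 in all 12 libraries. The part of these shifts in the results below was not tested.

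On day 7, 55 of the 59 genes were higher than in sham hearts and 1 was lower, against 15.3% and 5.88% of all genes tested. The median log2 FC of the 59 was 4.16, and that of all genes tested was 0.0261. On day 1, 29 of the 59 were already higher and 0 were lower, against 7.79% and 2.98% of all genes, with a median log2 FC of 1.08 beside -0.0121 for all genes. Between day 1 and day 7, 55 rose and 0 fell, against 8.55% and 2.69% of all genes, with a median of 2.76 beside 0.0214. By DESeq2 the counts higher were 31, 55 and 55 for day 1 against sham, day 7 against sham and day 7 against day 1. The counts lower were 0, 1 and 0. Of 26528 genes tested by DESeq2, 1296, 2567 and 1439 were higher and 534, 1033 and 477 lower. At an unadjusted p below 0.05 in edgeR, with no FC minimum, 4 genes were lower on day 1 and 1 was lower between day 1 and day 7. The share of all genes by that rule was not computed. The comparisons share groups of hearts and are not independent of each other. For 55 of the 59 genes every day 7 AMI heart lay above every sham and every day 1 AMI heart, where 28.3% of all genes did so against sham and 23.5% against day 1. The exceptions were *Pttg1*, which fell, and *Cenpa*, *Cenpf* and *Spc24*, which were not called in any comparison.

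**Figure D1:**
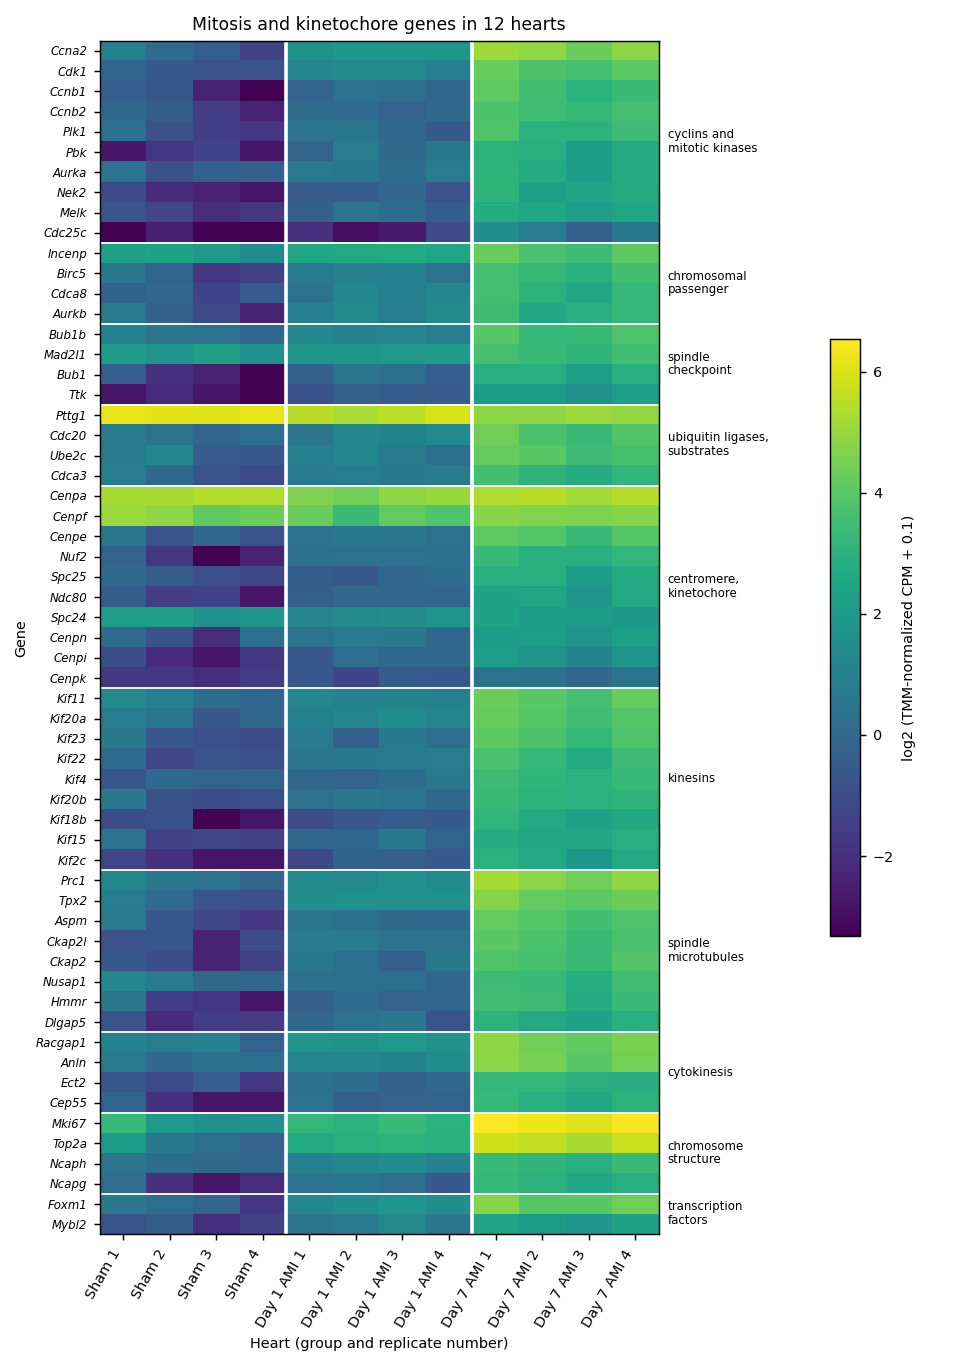
Level of the 59 genes in each of the 12 hearts as log2 of TMM-normalized CPM plus 0.1 (color), with genes in rows by role and hearts in columns by group and replicate number. Nearly all genes brighten from sham to day 7 AMI, whereas *Pttg1*, *Cenpa* and *Cenpf* are bright in all 3 groups, and the first sham heart is brighter than the other 3 for 43 of the 59 genes.

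Levels can be compared between genes in TPM, which corrects for transcript length. In sham hearts 49 of the 59 genes had a mean below 1 TPM, and on day 7 none did. The 55 genes that were higher on day 7 had a median of 0.375 TPM in sham hearts, 0.867 on day 1 and 7.27 on day 7. The other 4 had a median of 22.2, 20.2 and 32.5 TPM. *Pttg1* and *Cenpa* had the highest TPM of the 59 in all 3 groups, at 176, 148 and 109 TPM and 40.3, 36.9 and 58.2 TPM. Behind them on day 7 came *Ube2c* at 32.4 TPM, *Cdk1* at 31.4, *Top2a* at 24.1 and *Prc1* at 22.2, and the lowest was *Cdc25c* at 1.57 TPM. The counts behind the 55 genes were few in sham hearts, with a median of 11 per gene and heart, against 40 on day 1 and 272 on day 7.

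**Figure D2:**
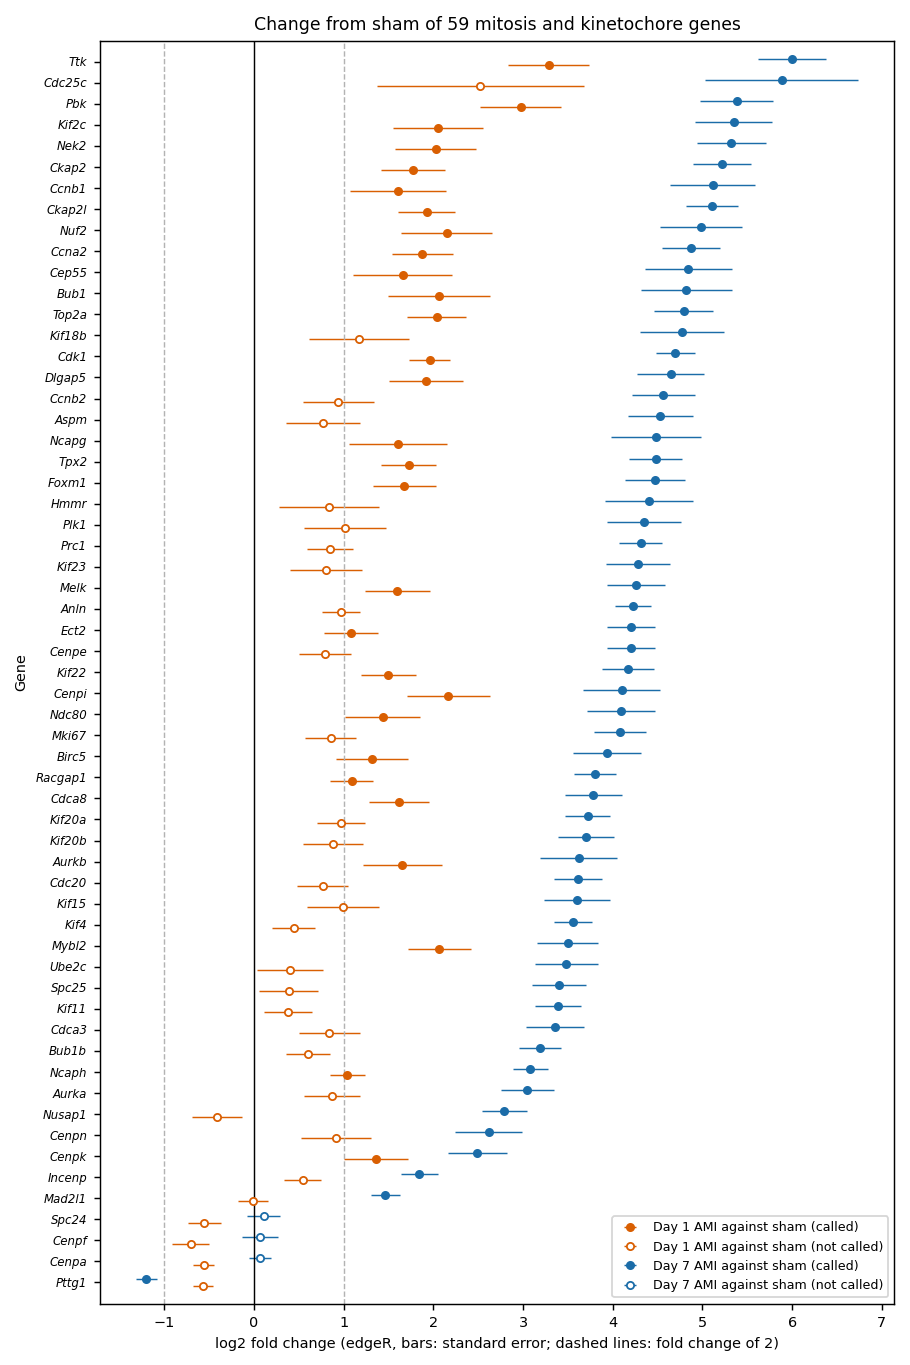
Log2 FC of each of the 59 genes in day 1 AMI (orange) and day 7 AMI (blue) against sham, with bars of 1 standard error, filled points for called genes and dashed lines at a FC of 2. Day 7 points run from -1.20 for *Pttg1* to 6.00 for *Ttk*, and day 1 points lie to the left of the day 7 points for all genes other than *Pttg1*.

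The promoters of these genes are shown because their members rose together. RefSeq gives a window from 250 bases before to 50 bases after the transcription start, on the mouse build GRCm38.p6, for 49 of the 59 genes. The RefSeq start lay furthest from that of GENCODE, another gene annotation, for *Kif2c* (3867 bases), *Cdca3* (488), *Kif4* (328) and *Mad2l1* (169). The genes with no window are *Ccna2*, *Cdc25c*, *Pbk*, *Aurkb*, *Incenp*, *Spc24*, *Kif20a*, *Tpx2*, *Dlgap5* and *Foxm1*. Both strands were searched for the cell cycle genes homology region (CHR, TTTGAA or its reverse complement TTCAAA), which MuvB binds, and for the CCAAT box (CCAAT or ATTGG), which NF-Y binds. A CHR stood in 35 of the 49 windows (71.4%) and in 17.9% of 32851 windows of all genes. Within 50 bases of the start it stood in 65.3% of the 49 and 5.14% of all windows. A CCAAT box stood in 71.4% and 37.4%, and both motifs together in 59.2% and 6.95%. For E2F 4 spellings were searched on both strands, the first TTCCCGC, the second TTGGCGC, the third TTCGCGC and the last spelling TTGCCGC, and any of them was found in 20.4% and 9.57%, and a TATA box (TATAAA) in 4.08% and 13.6%. Such matches describe the letters and are not shown to be bound in these hearts.

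The 150 bases before the start of 7 genes are printed 5′ to 3′ on the strand of the gene, with CHR and CCAAT box matches in capitals. *Cdk1*, *Mki67*, *Top2a*, *Cdc20*, *Ube2c* and *Kif11* rose, and *Pttg1* fell and has neither motif in its window. The regions are chr10:69352913-69353062 on the minus strand for *Cdk1*, chr7:135716380-135716529 minus for *Mki67*, chr11:99024190-99024339 minus for *Top2a*, chr4:118437344-118437493 minus for *Cdc20*, chr2:164769779-164769928 plus for *Ube2c*, chr19:37376232-37376381 plus for *Kif11* and chr11:43425982-43426131 minus for *Pttg1*.
Cdk1: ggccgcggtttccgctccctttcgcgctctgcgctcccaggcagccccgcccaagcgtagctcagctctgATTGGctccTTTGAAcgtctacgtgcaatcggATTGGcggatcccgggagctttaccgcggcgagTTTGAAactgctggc
Mki67: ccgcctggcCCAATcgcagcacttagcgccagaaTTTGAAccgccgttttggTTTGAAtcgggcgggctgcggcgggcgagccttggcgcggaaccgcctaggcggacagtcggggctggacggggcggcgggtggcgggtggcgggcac
Top2a: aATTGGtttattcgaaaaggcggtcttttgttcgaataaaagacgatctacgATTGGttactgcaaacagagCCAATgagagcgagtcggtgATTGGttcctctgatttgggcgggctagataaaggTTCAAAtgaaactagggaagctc
Cdc20: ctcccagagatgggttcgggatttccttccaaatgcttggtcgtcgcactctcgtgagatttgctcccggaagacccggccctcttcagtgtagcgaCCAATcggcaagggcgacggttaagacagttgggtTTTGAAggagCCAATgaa
Ube2c: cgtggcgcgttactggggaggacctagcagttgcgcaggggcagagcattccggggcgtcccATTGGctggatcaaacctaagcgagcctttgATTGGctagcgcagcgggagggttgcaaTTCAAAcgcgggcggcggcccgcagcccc
Kif11: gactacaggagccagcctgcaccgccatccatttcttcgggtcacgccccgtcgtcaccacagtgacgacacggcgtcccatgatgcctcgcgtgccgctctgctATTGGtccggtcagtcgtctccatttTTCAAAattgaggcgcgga
Pttg1: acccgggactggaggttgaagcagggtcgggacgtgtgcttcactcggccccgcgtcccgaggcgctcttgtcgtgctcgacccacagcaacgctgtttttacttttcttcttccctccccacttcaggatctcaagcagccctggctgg

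In other genes the CHR lies just past the start, and 30 bases around it are printed with the CHR alone in capitals. *Ccnb2*, *Kif23*, *Aspm*, *Hmmr* and *Racgap1* were higher on day 7, and *Cenpf* was not, with the same 6 letters 3 bases from its start, as in *Kif23*. The regions are chr9:70421533-70421562, chr9:61946780-61946809, chr11:40733412-40733441, chr15:99651634-99651663 and chr1:189688067-189688096 on the minus strand, in that order of genes without *Aspm*, and chr1:139454767-139454796 on the plus strand for *Aspm*.
Ccnb2: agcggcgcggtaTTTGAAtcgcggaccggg
Kif23: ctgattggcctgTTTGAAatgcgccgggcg
Aspm: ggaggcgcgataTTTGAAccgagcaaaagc
Hmmr: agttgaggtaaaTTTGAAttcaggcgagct
Racgap1: ctggtgcgtgatTTTGAAccggatctggcg
Cenpf: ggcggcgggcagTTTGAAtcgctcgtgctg

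Of the 35 genes with a CHR in the window, 33 were higher on day 7 and 13 on day 1, with median log2 FCs of 4.16 and 0.938. Of the 14 without one, 13 were higher on day 7 and 10 on day 1, with medians of 4.02 and 1.48. These counts are descriptive, and the difference between the sets was not tested.

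**Figure D3:**
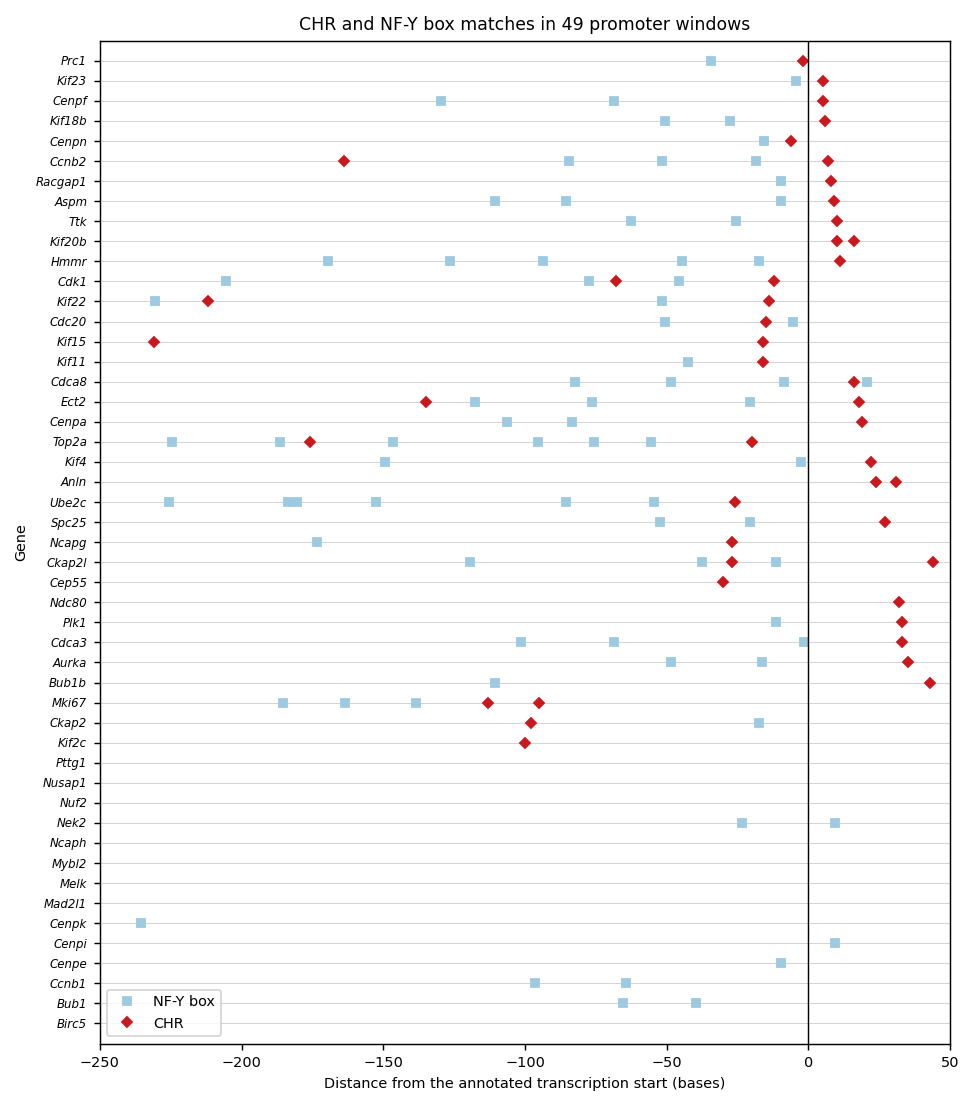
Centre of each CHR (red diamonds) and each CCAAT box, the NF-Y box (blue squares), against its distance in bases from the annotated transcription start (vertical line), for 49 genes with a window, genes in rows. Most CHR matches gather within 50 bases of the start, in 32 of the 49 genes, with CCAAT boxes before them, and 14 genes at the bottom have no CHR.

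Mitotic entry genes rose in full. All 10 genes for CDK1, its cyclins and the mitotic kinases were higher on day 7 (median log2 FC 4.79) and 6 were higher on day 1. *Cdk1*, the kinase that drives entry, had 0.835, 0.575, 0.485 and 0.478 CPM in sham hearts, 2.29, 2.57, 2.49 and 1.86 in day 1 AMI, and 19.1, 13.6, 12.4 and 16.5 in day 7 AMI. The 3 groups did not overlap, and the log2 FC was 1.96 ± 0.23 (adjusted p = 4.14e-05) on day 1 and 4.7 ± 0.22 (adjusted p = 2.82e-09) on day 7. *Ccna2*, cyclin A2, which serves S phase and early mitosis, had 1.93, 0.986, 0.679 and 0.287 CPM in sham hearts, 3.17, 3.76, 3.57 and 3.59 in day 1 AMI, and 34.3, 30.9, 19.4 and 28.1 in day 7 AMI. It too had no overlap, with log2 FCs of 1.88 ± 0.34 (adjusted p = 6.64e-04) and 4.87 ± 0.32 (adjusted p = 5.58e-08).

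The B-type cyclins, which complete the mitotic kinase, started from a few counts. *Ccnb1* had 0.678, 0.534, 0.097 and 0 CPM in sham hearts, 0.765, 1.19, 1.14 and 0.914 in day 1 AMI, and 16.8, 11.3, 7.75 and 10.3 in day 7 AMI, with a count of 0 in the fourth sham heart. *Ccnb2* had 0.939, 0.657, 0.243 and 0.0956 CPM in sham hearts, 1.03, 0.985, 0.752 and 0.946 in day 1 AMI, and 13.4, 11.1, 9.37 and 12.1 in day 7 AMI. For *Ccnb2* the first sham heart lay within the day 1 range, and the day 1 log2 FC of 0.94 ± 0.40 (adjusted p = 0.0714) was not called, whereas that of *Ccnb1* was called at 1.61 ± 0.54 (adjusted p = 0.0273). The *Ccnb1* call was lost without the third sham heart, the fourth sham heart, the second day 1 heart or the third day 1 heart (adjusted p up to 0.076, edgeR), with the 2 groups fitted alone and by limma on log2(TPM + 1), and the difference between the 2 cyclins was not tested. On day 7 the log2 FCs were 5.11 ± 0.47 (adjusted p = 8.33e-07) for *Ccnb1* and 4.56 ± 0.35 (adjusted p = 1.74e-07) for *Ccnb2*. Of the 75-base stretches of *Ccnb1* exons, 18.9% are also found in annotated copies of the gene, so its reads can be split among them.

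Polo-like kinase 1 (*Plk1*), which acts at centrosomes and kinetochores, had 1.15, 0.452, 0.243 and 0.191 CPM in sham hearts, 1.26, 1.34, 0.883 and 0.568 in day 1 AMI, and 14.2, 7.8, 8.23 and 10.6 in day 7 AMI. Aurora A (*Aurka*), which matures the centrosomes, had 1.25, 0.452, 0.728 and 0.717 CPM in sham hearts, 1.64, 1.37, 1.01 and 1.67 in day 1 AMI, and 8.38, 6.53, 4.17 and 6.6 in day 7 AMI. Both had sham and day 1 hearts that overlapped and were not called on day 1, and both had a day 7 group clear of the others, with log2 FCs of 4.35 ± 0.41 (adjusted p = 1.00e-06) and 3.04 ± 0.30 (adjusted p = 1.24e-06). A further 3 kinases were called higher on both days. *Pbk*, a mitotic serine/threonine kinase, went from a mean of 0.149 ± 0.12 CPM to 1.22 ± 0.41 CPM and 6.52 ± 1.6 CPM, *Nek2*, which parts the centrosomes, from 0.158 ± 0.141 CPM to 0.64 ± 0.156 CPM and 6.31 ± 1.72 CPM, and *Melk*, a kinase of dividing cells, from 0.297 ± 0.169 CPM to 0.897 ± 0.292 CPM and 5.72 ± 0.961 CPM. *Cdc25c*, the phosphatase that removes the inhibitory phosphates from CDK1, had 2 counts over the 4 sham hearts, 19 on day 1 and 194 on day 7, a ratio of day 7 to sham of 71.8 with a 95% counting interval of 19.6 to 597.

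The chromosomal passenger complex carries Aurora B to centromeres and later to the midzone, and 4 of its 4 genes were higher on day 7 and 3 on day 1. *Aurkb*, its kinase, had 1.51, 0.739, 0.388 and 0.0956 CPM in sham hearts, 1.84, 2.45, 1.73 and 2.49 in day 1 AMI, and 10.8, 5.91, 7.16 and 9.42 in day 7 AMI. *Birc5*, survivin, which docks the complex on chromatin, had 1.41, 0.78, 0.194 and 0.287 CPM in sham hearts, 1.53, 1.88, 1.96 and 1.23 in day 1 AMI, and 12.1, 9.47, 7.49 and 11.6 in day 7 AMI. The day 1 hearts lay above the sham hearts for *Aurkb*, and for *Birc5* the first sham heart exceeded the fourth day 1 heart. Log2 FCs on day 7 were 3.62 ± 0.43 (adjusted p = 6.47e-06) for *Aurkb* and 3.93 ± 0.38 (adjusted p = 1.24e-06) for *Birc5*. *Cdca8*, borealin, rose to a log2 FC of 1.61 ± 0.33 (adjusted p = 0.00178) on day 1 and 3.78 ± 0.32 (adjusted p = 3.92e-07) on day 7. *Incenp*, the scaffold, had the highest sham level of the complex at 4.13 ± 1.13 CPM and the smallest day 7 log2 FC, 1.84 ± 0.20 (adjusted p = 3.82e-06).

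Among the genes of the spindle assembly checkpoint, 4 of 4 were higher on day 7 and 2 on day 1, and on day 7 they included the largest and the smallest log2 FC of the 55 genes called higher. *Ttk*, MPS1, the kinase that starts the checkpoint signal, had 0.0522, 0.123, 0.0485 and 0 CPM in sham hearts, 0.459, 0.716, 0.622 and 0.631 in day 1 AMI, and 4.31, 4.02, 3.25 and 4.52 in day 7 AMI. The sham values rest on 5 counts over 4 hearts, and the ratio of day 7 to sham was 68.9 with a counting interval of 29.3 to 213, while the fitted log2 FC of 6 ± 0.38 (adjusted p = 3.77e-08) was the largest of the 59 genes. *Mad2l1*, MAD2, which binds and holds CDC20, had 4.23, 3.41, 4.8 and 3.01 CPM in sham hearts, 3.59, 3.64, 3.79 and 4.29 in day 1 AMI, and 12.3, 10.3, 8.67 and 11.3 in day 7 AMI. Sham and day 1 hearts overlapped with a log2 FC of -0.01 ± 0.16 (adjusted p = 0.972), and the day 7 rise of 1.47 ± 0.16 (adjusted p = 3.59e-06) was the smallest of the 55 that were called. *Bub1b*, BUBR1, an inhibitor in the same complex, had 1.98, 1.27, 1.21 and 0.908 CPM in sham hearts, 2.29, 1.97, 2.13 and 1.77 in day 1 AMI, and 15.6, 9.47, 9.74 and 14.1 in day 7 AMI. It was not called on day 1 and had a log2 FC of 3.19 ± 0.24 (adjusted p = 1.24e-07) on day 7. *Bub1*, the kinetochore kinase that recruits it, had log2 FCs of 2.06 ± 0.57 (adjusted p = 0.00978) and 4.82 ± 0.51 (adjusted p = 2.54e-06).

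Of the genes for mitotic ubiquitin ligases and their substrates, 3 rose and 1 fell by day 7, and on day 1 the 4 were not called. *Cdc20*, the activator of the anaphase-promoting complex, had 1.62, 1.23, 0.825 and 1.1 CPM in sham hearts, 1.3, 2.27, 2.06 and 2.43 in day 1 AMI, and 20.9, 13, 10 and 14.5 in day 7 AMI. *Ube2c*, the E2 enzyme that feeds the complex, had 1.62, 2.22, 0.631 and 0.574 CPM in sham hearts, 1.87, 2.24, 1.57 and 1.07 in day 1 AMI, and 17.7, 16, 10.7 and 12.7 in day 7 AMI. For both, sham and day 1 hearts overlapped and day 7 stood clear, with log2 FCs of 3.61 ± 0.27 (adjusted p = 1.45e-07) and 3.48 ± 0.35 (adjusted p = 1.62e-06). *Ube2c* shares 22.8% of its exon bases with the antisense gene *Tnnc2*, and the strand counted is not given in the sources used here. *Cdca3*, a trigger of mitotic entry that acts through a ubiquitin ligase, went from 0.87 ± 0.586 CPM in sham hearts to 8.84 ± 2.02 CPM on day 7 (log2 FC 3.35 ± 0.32, adjusted p = 1.13e-06).

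*Pttg1*, securin, which holds separase inactive until anaphase, moved the other way. It had 74.3, 69.9, 66.7 and 73.6 CPM in sham hearts, 45.2, 38.6, 47.2 and 60.9 in day 1 AMI, and 29.1, 29.9, 33.8 and 30.9 in day 7 AMI. In CPM the 3 groups did not overlap, each AMI group lying below the one before it. In TPM the fourth day 1 heart, at 193, lay above the sham hearts, at 172 to 181. The log2 FC was -0.57 ± 0.11 (adjusted p = 0.00136) on day 1, which missed the FC minimum, and -1.2 ± 0.12 (adjusted p = 1.09e-06) on day 7, which was called. The day 7 value ran from -1.22 to -0.68 over 8 alternative settings, and the gene was not called lower with library size alone as the scaling or by limma on log2 TPM, settings that moved the median of all genes to 0.425 or more.

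Of all roles, centromere and kinetochore genes had the smallest share called higher on day 7, 7 of 10, with 0 lower. On day 1, 4 were higher. *Ndc80*, the outer kinetochore subunit that grips microtubules, had 0.626, 0.246, 0.291 and 0.0478 CPM in sham hearts, 0.688, 0.865, 0.851 and 0.82 in day 1 AMI, and 5.24, 5.68, 3.43 and 6.19 in day 7 AMI, and its log2 FC was 1.43 ± 0.42 (adjusted p = 0.0135) on day 1 and 4.09 ± 0.38 (adjusted p = 7.83e-07) on day 7. Its partner *Nuf2* had 0.782, 0.205, 0 and 0.0956 CPM in sham hearts, 1.15, 1.19, 1.21 and 1.14 in day 1 AMI, and 10.2, 7.22, 7.12 and 9.05 in day 7 AMI. In both genes every day 1 heart lay above every sham heart and below every day 7 heart. *Spc25*, of the same 4-protein complex, was not called on day 1 (log2 FC 0.38 ± 0.33, adjusted p = 0.371) and was higher on day 7 (log2 FC 3.4 ± 0.30, adjusted p = 5.22e-07). The kinesin *Cenpe*, which carries chromosomes to the spindle equator, went from 0.787 ± 0.39 CPM to 1.34 ± 0.112 CPM and 14.3 ± 3.04 CPM. Of the genes for the inner, constitutive centromere network, *Cenpi*, *Cenpn* and *Cenpk* reached log2 FCs on day 7 of 4.1, 2.62 and 2.49, and *Cenpk* had the lowest CPM of the 59 on day 7 at 1.14 ± 0.186 CPM.

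The other 3 kinetochore genes had their lowest mean on day 1. *Cenpa*, the histone H3 variant that marks the centromere, had 38.2, 37.4, 41.8 and 41.1 CPM in sham hearts, 24.7, 21.2, 28.7 and 32.7 in day 1 AMI, and 41, 45.8, 35.7 and 43.3 in day 7 AMI. The day 1 hearts lay below all sham and all day 7 hearts, with a log2 FC of -0.56 ± 0.12 (adjusted p = 0.00221) against sham, 0.63 ± 0.12 (adjusted p = 7.36e-04) from day 1 to day 7, and 0.07 ± 0.12 (adjusted p = 0.657) between day 7 and sham. *Cenpf*, a large protein of the outer kinetochore, had 33.1, 29, 17.1 and 19.9 CPM in sham hearts, 18.7, 10.1, 18.1 and 14.1 in day 1 AMI, and 27.4, 25.6, 24.4 and 26.5 in day 7 AMI. *Spc24*, another subunit of the NDC80 complex, had 4.54, 4.76, 3.25 and 3.44 CPM in sham hearts, 2.18, 2.48, 2.85 and 3.37 in day 1 AMI, and 5.15, 4.13, 4.21 and 3.74 in day 7 AMI. In these 2 genes sham hearts overlapped both other groups, day 7 lay above day 1 in every heart, and the log2 FC from day 1 to day 7 was 0.77 ± 0.20 (adjusted p = 0.00691) for *Cenpf* and 0.66 ± 0.18 (adjusted p = 0.00873) for *Spc24*. With a false discovery rate below 0.05 and no FC minimum, the counts on day 1 were 38 higher and 4 lower, the 4 being *Pttg1*, *Cenpa*, *Cenpf* and *Spc24*, against 22.0% and 19.9% of all genes. By the same rule 55 were higher and 1 lower on day 7 against sham, beside 30.9% and 28.4% of all genes, and 58 were higher and 1 lower between day 1 and day 7, against 24.2% and 22.8%. Of the 4 genes lower on day 1, 0 passed with library size alone as the scaling or by limma on log2 TPM. The position of day 7 beside sham for *Cenpa*, *Cenpf* and *Spc24* also depended on the scale. In TPM every day 7 heart lay above every sham heart, at 47.3 to 64.2 against 32.9 to 45.9 for *Cenpa*, 3.7 to 4.2 against 1.75 to 3.09 for *Cenpf* and 5.26 to 7.74 against 3.33 to 5.01 for *Spc24*. The day 1 hearts of *Cenpa*, at 29.1 to 47.5 TPM, overlapped both other groups on that scale. Over 8 alternatives their day 7 log2 FCs reached 0.53, 0.70 and 0.69, and the day 1 log2 FC of *Cenpa* ran from -0.57 to -0.14.

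A difference in CPM reads otherwise than a fold change for these genes. Between day 1 and day 7 *Cenpa* gained 14.6 CPM, the ninth largest gain of the 59, and *Cenpf* gained 10.7 CPM, beside a median gain of 8.06 CPM among the 55 genes called higher on day 7. *Spc24* gained 1.59 CPM. Against sham the day 7 difference was 1.83 CPM for *Cenpa* and 1.20 for *Cenpf*, beside a median of 8.33 among the 55.

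**Figure D4:**
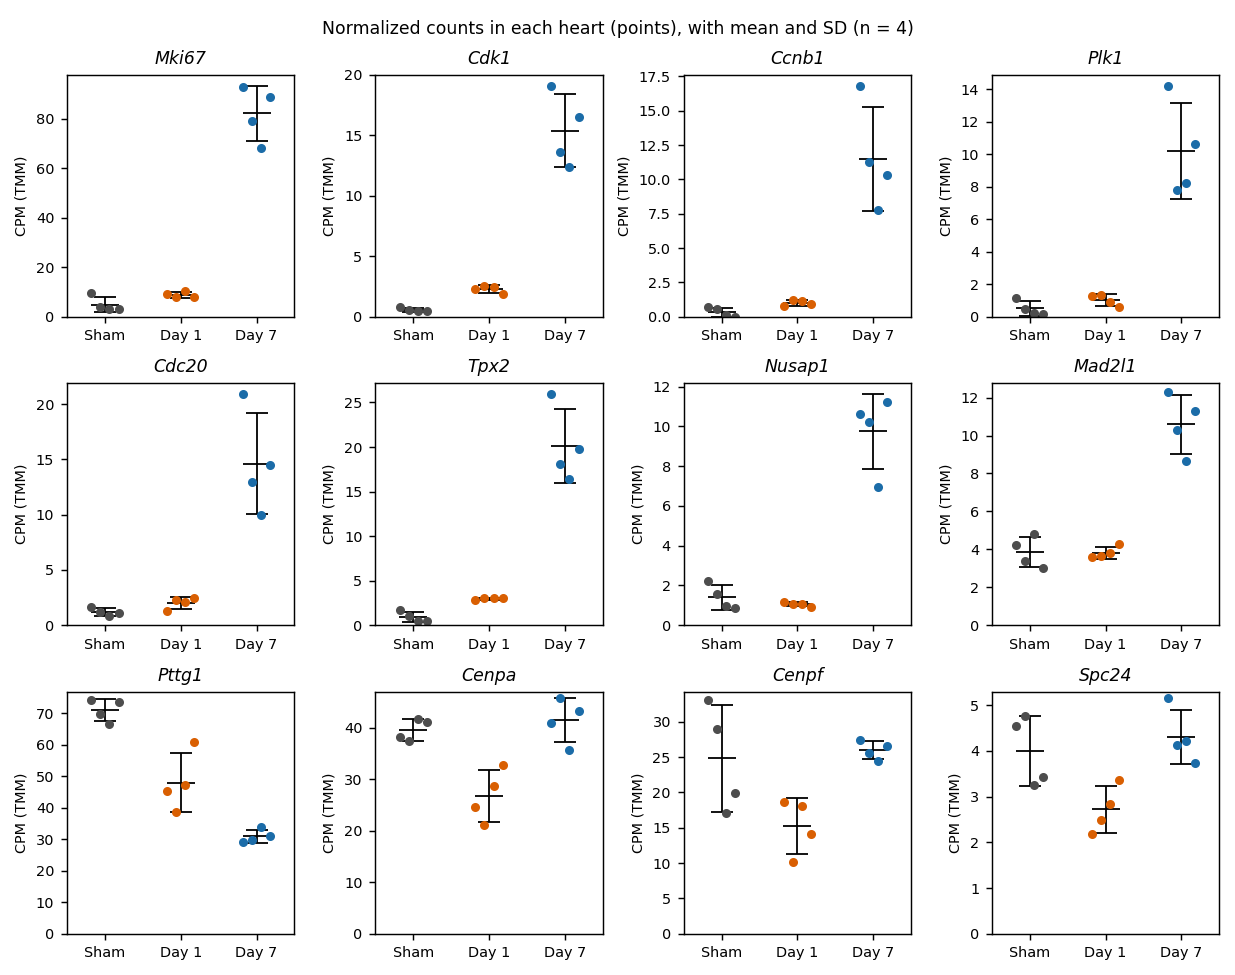
TMM-normalized CPM of 12 of the genes in each heart (points), with the mean (long bar) and SD (short bars, n = 4) of sham (grey), day 1 AMI (orange) and day 7 AMI (blue) hearts, each panel starting at 0. The first 8 panels show genes that were higher on day 7, and the last row shows *Pttg1*, with each AMI group below the one before it, and *Cenpa*, *Cenpf* and *Spc24*, with their lowest mean on day 1.

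Kinesins, the motors of the mitotic spindle, rose chiefly after day 1, with 9 of 9 higher on day 7 and 2 on day 1. By log2 FC the step from day 1 to day 7 was the larger in 50 of the 55 genes called higher on day 7. *Kif11*, Eg5, the motor that pushes the spindle poles apart, had 2.56, 1.81, 1.02 and 0.908 CPM in sham hearts, 2.26, 1.97, 2.03 and 1.92 in day 1 AMI, and 19.3, 16.2, 12 and 18.3 in day 7 AMI, with sham and day 1 hearts intermixed (log2 FC 0.38 ± 0.27, adjusted p = 0.281) and a day 7 log2 FC of 3.39 ± 0.26 (adjusted p = 1.65e-07). The microtubule depolymerase *Kif2c*, MCAK, had the largest change of the motors, from 0.143 ± 0.126 CPM to 5.94 ± 1.85 CPM, a log2 FC of 5.35 ± 0.43 (adjusted p = 2.43e-07), and was called on day 1 as well (2.05 ± 0.51, adjusted p = 0.00524). *Kif22*, which pushes chromosome arms outward, was the other kinesin higher on day 1 (1.5 ± 0.31, adjusted p = 0.00168). *Kif20a* and *Kif23*, motors of the midzone, had day 7 log2 FCs of 3.72 and 4.28, and *Kif4*, *Kif15*, *Kif18b* and *Kif20b* of 3.56, 3.61, 4.77 and 3.7. *Kif20a* shares 29.3% of its exon bases with the antisense gene *Cdc23*, and *Kif4* 15.1% with *Pdzd11*.

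Proteins that organize spindle microtubules were higher in 8 of 8 cases on day 7 and 4 on day 1. *Tpx2*, which activates Aurora A on the spindle, had 1.72, 0.986, 0.485 and 0.43 CPM in sham hearts, 2.83, 3.01, 3.04 and 3 in day 1 AMI, and 25.9, 18.1, 16.4 and 19.8 in day 7 AMI, with a log2 FC of 1.72 ± 0.30 (adjusted p = 5.94e-04) on day 1 and 4.48 ± 0.29 (adjusted p = 5.05e-08) on day 7. *Prc1*, which bundles the antiparallel microtubules of the midzone, had 2.35, 1.44, 1.26 and 0.861 CPM in sham hearts, 2.6, 2.42, 3.08 and 2.46 in day 1 AMI, and 37.4, 28, 21.3 and 30 in day 7 AMI. Its day 1 hearts also lay above all sham hearts, although the log2 FC of 0.84 ± 0.25 (adjusted p = 0.0162) was below the minimum, and on day 7 it was 4.31 ± 0.24 (adjusted p = 1.56e-08). *Ckap2* and *Ckap2l*, which promote microtubule growth in the spindle, and *Dlgap5*, HURP, which stabilizes kinetochore fibers, were called on both days, with log2 FCs on day 7 of 5.22, 5.11 and 4.65. *Aspm*, of the spindle poles, and *Hmmr*, a spindle-binding hyaluronan receptor, were called on day 7 alone of these 2 days, at 4.53 and 4.41. *Nusap1*, a microtubule bundler, had 1.41 ± 0.636 CPM in sham hearts and 1.05 ± 0.0987 CPM on day 1 (log2 FC -0.41 ± 0.28, adjusted p = 0.25) before reaching 9.74 ± 1.89 CPM on day 7.

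The 4 cytokinesis genes were higher on day 7 in 4 of 4 cases and on day 1 in 3. *Anln*, anillin, the scaffold of the contractile ring, had 1.62, 0.945, 1.12 and 1.1 CPM in sham hearts, 2.14, 2.36, 2.09 and 2.68 in day 1 AMI, and 28, 22.6, 16.2 and 21.9 in day 7 AMI. All day 1 hearts lay above all sham hearts, but its day 1 log2 FC of 0.97 ± 0.21 (adjusted p = 0.00258) fell just short of the minimum, and on day 7 it was 4.22 ± 0.20 (adjusted p = 3.91e-09). *Ect2*, the exchange factor that activates RhoA at the equator, had 0.522, 0.37, 0.679 and 0.191 CPM in sham hearts, 1.15, 1.01, 0.72 and 0.851 in day 1 AMI, and 9.09, 9.08, 7.3 and 7.04 in day 7 AMI, with log2 FCs of 1.08 ± 0.30 (adjusted p = 0.0101) and 4.2 ± 0.27 (adjusted p = 4.33e-08). *Racgap1*, the centralspindlin subunit that binds ECT2, reached 3.8 ± 0.24 (adjusted p = 3.38e-08), and *Cep55*, of the midbody, 4.84 ± 0.49 (adjusted p = 1.59e-06).

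*Mki67*, the surfactant-like coat of mitotic chromosomes and the usual marker of proliferation, and *Top2a*, which untangles sister DNA, had the most CPM on day 7 of the genes that rose. *Mki67* had 9.55, 4.02, 2.96 and 3.06 CPM in sham hearts, 9.1, 7.94, 10.3 and 7.82 in day 1 AMI, and 92.9, 79, 68 and 88.8 in day 7 AMI. The first sham heart lay among the day 1 hearts, so the day 1 groups overlapped (log2 FC 0.85 ± 0.28, adjusted p = 0.026), and day 7 stood apart at 4.08 ± 0.29 (adjusted p = 9.31e-08). *Top2a* had 4.02, 1.44, 1.07 and 0.765 CPM in sham hearts, 6.35, 7.19, 8.24 and 7.57 in day 1 AMI, and 56.7, 50.2, 37.7 and 53.9 in day 7 AMI, with no overlap between any 2 groups and log2 FCs of 2.04 ± 0.33 (adjusted p = 3.38e-04) and 4.79 ± 0.33 (adjusted p = 7.26e-08). *Ncapg* and *Ncaph*, subunits of condensin I, were called on both days and reached 4.48 and 3.08 on day 7. The day 1 call of *Ncapg* (1.61 ± 0.55, adjusted p = 0.0306) was lost without any one of the last 3 sham hearts or the first 3 day 1 hearts, with the 2 groups fitted alone and by limma on log2 TPM. That of *Ncaph* was lost without the fourth sham or the third day 1 heart, and by limma on log2(TPM + 1).

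Both transcription factors of the program were higher at both times. *Foxm1* had 1.46, 1.07, 0.825 and 0.191 CPM in sham hearts, 2.29, 2.72, 3.5 and 2.81 in day 1 AMI, and 26.1, 15.1, 16.2 and 21 in day 7 AMI, and its log2 FC was 1.68 ± 0.35 (adjusted p = 0.0018) on day 1 and 4.47 ± 0.34 (adjusted p = 1.45e-07) on day 7. *Mybl2*, B-MYB, had 0.469, 0.657, 0.146 and 0.287 CPM in sham hearts, 1.3, 1.64, 2.39 and 1.36 in day 1 AMI, and 5.3, 4.06, 3.54 and 5.17 in day 7 AMI, with log2 FCs of 2.07 ± 0.35 (adjusted p = 4.58e-04) and 3.5 ± 0.34 (adjusted p = 1.19e-06). In both genes the 3 groups were fully apart. The log2 FC of *Mybl2* from sham to day 1 was larger than that from day 1 to day 7, 1.43 ± 0.28 (adjusted p = 7.86e-04), a difference that was not tested. In CPM the second step was the larger, 2.84 against 1.28. Of the 75-base stretches of *Mybl2* exons, 17.1% are also found in transcripts of other genes, so its reads can be split among them.

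The number of genes called on day 1 depended on which hearts were included. The first sham heart was the highest of the 4 sham hearts for 43 of the 59 genes. Its summed level over the 55 genes that rose was 77.5 CPM, beside 47.4, 35.5 and 29.2 in the others. Day 1 AMI hearts had sums of 94.4, 102, 106 and 95.1 CPM, and day 7 AMI hearts 854, 678, 534 and 732. Without the first sham heart 44 genes were higher on day 1, including the 29, and without the fourth sham heart 23 were. Of all genes tested, 1199 of 15608 and 1109 of 15598 were. Of the 29 calls, 22 held with each heart left out, and 7 were lost without at least 1 heart, those of *Ccnb1*, *Birc5*, *Ect2*, *Racgap1*, *Cep55*, *Ncapg* and *Ncaph*. On day 7 the first heart was the highest for 48 of the 59 genes and the third the lowest for 50. The fibroblast marker sums of the day 7 hearts, 12500, 8820, 6830 and 9110 CPM, stood in the same order as the sums of the 55 genes, as did the monocyte and macrophage sums on day 7, 647, 449, 402 and 622. The day 7 endothelial sums, 1370, 1220, 1330 and 1330, and neutrophil sums, 13.7, 8.35, 11.8 and 39.4, did not. Neither did the day 7 sums of the other cell types examined. In sham hearts the fibroblast sums, 1290, 1160, 1060 and 1030, also stood in the order of the gene sums, while the day 1 sums of 1520, 1950, 1510 and 2040 did not. The monocyte and macrophage sums did not stand in that order in sham hearts (232, 265, 183 and 170) or on day 1 (366, 430, 313 and 390). Mitochondrial transcripts took 27.4% of the counts of the first sham heart and 17.9% to 21.5% of the others. The part of any of these in the mitotic gene levels was not tested.

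Of 69 other mitotic genes, 50 were higher on day 7 and 0 lower, against 15.3% and 5.88% of all genes, with a median log2 FC of 2.25. On day 1 26 were higher and 1 was lower, *Sgo2a*, a protector of centromeric cohesion, against 7.79% and 2.98% of all genes. The largest day 7 changes in that list were those of *Depdc1a* (6.12), *Kntc1* (5.6) and *Psrc1* (5.36), and the smallest those of *Cenpb* (-0.44), *Haus1* (-0.38) and *Zwint* (-0.28). The 15 genes for subunits of the anaphase-promoting complex and its other activator, *Fzr1*, had 0 calls in either direction in all 3 comparisons by edgeR. Of all genes, 7.79% were higher and 2.98% lower on day 1, and 15.3% and 5.88% on day 7. Between day 1 and day 7, 8.55% and 2.69% were. Their log2 FCs on day 7 ran from -0.988 for *Anapc13* to 0.527 for *Cdc27*. With no FC minimum, 3 of them were higher and 4 lower on day 7 at a false discovery rate below 0.05, against 30.9% and 28.4% of all genes. At an unadjusted p below 0.05 in edgeR the counts were 6 and 4, for which the share of all genes was not computed. The enzyme that feeds the complex and its mitotic activator, *Ube2c* and *Cdc20*, rose as given above.

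Of 25 DNA replication genes, 10 were higher on day 1, 14 on day 7 and 4 between the 2 days, against 7.79%, 15.3% and 8.55% of all genes. With no FC minimum 18, 22 and 17 were, against 22.0%, 30.9% and 24.2%. Among the 14 higher on day 7 the step from sham to day 1 was the larger in 13, whereas among the 55 mitosis and kinetochore genes it was the larger in 5, *Pbk*, *Ttk*, *Cenpi*, *Cenpk* and *Mybl2*, and among the 50 other mitotic genes in 10. Among all 2346 genes called higher on day 7 it was the larger in 46.2%. The 2 steps share the day 1 hearts, and the difference between the lists was not tested. *Uhrf1*, *Cdc6* and *E2f1* had the largest day 7 log2 FCs of the replication list (3.48, 3.17 and 3.09), and *Gins1*, *Gins4* and *Rfc4* the smallest (-0.28, -0.04 and 0.15).

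Of 8 genes for D and E cyclins and their kinases, 8 were higher on day 7 at a false discovery rate below 0.05 (30.9% of all genes), and 2 of them reached a FC of 2 (15.3% of all genes), *Ccnd1* at 1.18 ± 0.13 (adjusted p = 2.79e-06) and *Ccne1* at 1.3 ± 0.20 (adjusted p = 7.96e-05). On day 1 the 8 were not called, where 7.79% of all genes were higher and 2.98% lower. With no FC minimum 3 were higher on day 1, by the adjusted and by the unadjusted p below 0.05. By the adjusted p 22.0% of all genes were. Of 12 genes for DREAM, MuvB and the pocket proteins, *Rbl1*, p107, was higher on day 7 (1.83 ± 0.16, adjusted p = 4.84e-07), and *Tfdp2*, a dimer partner of E2F, was lower on day 1 and day 7 (-1.21 ± 0.13, adjusted p = 2.05e-05 and -1.04 ± 0.13, adjusted p = 8.23e-06). Of all genes, 15.3% were higher on day 7, and 2.98% and 5.88% were lower on day 1 and day 7. The MuvB genes *Lin9*, *Lin37*, *Lin52*, *Lin54* and *Rbbp4* were not called in any comparison. Of 7 genes for inhibitors of cyclin-dependent kinases, 1 was higher on day 1 and 2 on day 7, against 7.79% and 15.3% of all genes. *Cdkn2b*, p15, was higher on day 7 (2.8 ± 0.45, adjusted p = 1.03e-04). *Cdkn2a* had 2 counts over the sham hearts, 27 on day 1 and 67 on day 7. Its ratio of day 7 to sham was 24.8 with a counting interval of 6.61 to 209.

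**Figure D5:**
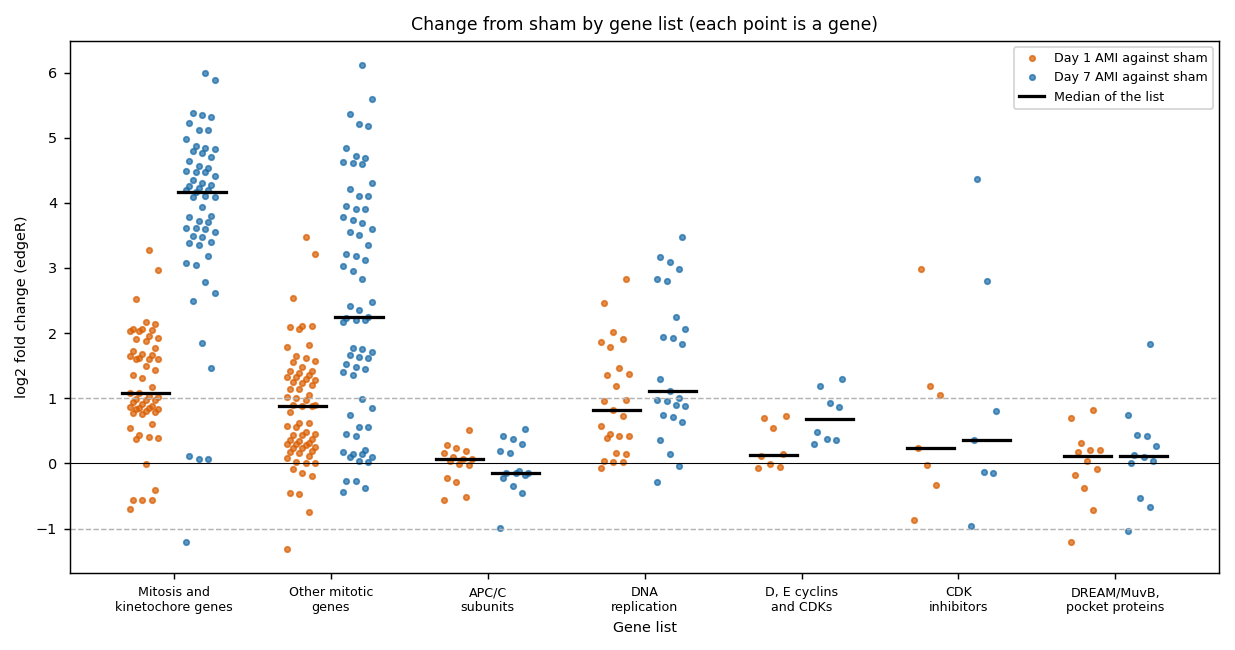
Log2 FC against sham of each gene (points) in day 1 AMI (orange) and day 7 AMI (blue) for the mitosis and kinetochore genes and 6 other lists, with the median of each list as a black bar and dashed lines at a FC of 2. The medians of the mitosis and kinetochore genes are 1.08 and 4.16, those of the DNA replication genes 0.815 and 1.11, and those of the subunits of the anaphase-promoting complex (APC/C) 0.0725 and -0.143.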

How the data were processed

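RNA from 12 mouse hearts was analysed in 3 groups of 4 (sham, day 1 AMI, day 7 AMI), to which hearts were assigned by label. Per the labels and the methods, the authors used Cutadapt for trimming, STAR 2.4.0j for alignment of read pairs to mouse GRCm38 (mm10) and RSEM for abundance. They deposited 2 tables, raw counts that are not normalized and TPM. The tool behind the counts and the strand counted are not given in the sources used here, and overlapping or copied genes can share reads.

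Counts were tested with edgeR 4.0.16 in R 4.3.3 (TMM, filterByExpr by group, quasi-likelihood test on one fit of 12 libraries), with calls at a FC of at least 2 and an FDR (Benjamini-Hochberg over 15306 genes) below 0.05. Standard errors are those implied by the F statistic. CPM used TMM-scaled library sizes with no prior count. Counting intervals of ratios are exact binomial at 95%. The depth was 23204551 to 32166517 counts per library, and 3 counts served as its floor. Libraries of one group differed by a chi-square of at least 9.25 per degree of freedom, so no library was repeated. The hearts are separate mice.

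Alternatives were DESeq2 1.42.0, limma 3.58.1 on TPM as log2(TPM + 1) or log2(TPM + 0.1), other size factors, no filter, the groups compared alone, no FC minimum, a replicate block, and each heart left out. On simulated data for day 7 against sham with 200 of 15306 genes changed 4-fold, edgeR recovered 200, DESeq2 200 and limma on log2(TPM + 1) 190. The changed genes were drawn above a minimum mean count, and all genes were given the same spread. The recovery therefore does not cover genes with as few sham counts as many of those studied here. Promoter sequences are RefSeq's, one window per gene, that nearest the GENCODE start, while the share for all genes counts windows. Python 3.11.15 and matplotlib 3.10.9 served for the plots.

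The genes, lists and motifs were chosen with earlier results of these data known. Members named with the value in each heart are 25 chosen by role, the 5 largest and 5 smallest changes on day 7, and those called lower or not at all, as far as the text turns on them. From other lists the 3 largest and 3 smallest day 7 changes are named, and any gene of lists of 12 or fewer. *Sgo2a*, *Fzr1* and the genes given as overlapping were named after their values were seen.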

Additional observations from a re-analysis of the deposited data

Results flagged for a closer look

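Within each group of 4 hearts the gap between the highest or lowest heart and its nearest neighbor was compared with the range of the group by Dixon's criterion. Of 177 groups, 59 genes in 3 conditions, 10 passed, and chance alone passes about 1 in 20. Of the 10, 7 were the first sham heart standing above the other 3. It had 9.55 CPM of *Mki67* (others 2.96 to 4.02), 1.20 of *Kif15* (others 0.287 to 0.340), 1.41 of *Kif20b* (others 0.388 to 0.452), 1.46 of *Kif23* (others 0.383 to 0.534), 1.41 of *Hmmr* (others 0.0478 to 0.246), 0.835 of *Cep55* (others 0.0478 to 0.164) and 1.04 of *Ncapg* (others 0.0485 to 0.164). The genes share that library, so these are not 7 independent signs. The second sham heart had 0.0821 CPM of *Cdc25c*, which is 2 counts, and the others had 0.

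In the AMI groups, *Cep55* reached 1.19 CPM in the first day 1 heart beside 0.686 to 0.757 in the others. *Bub1* was at 4.35 CPM in the third day 7 heart beside 7.15 to 7.34 in the others, and that heart was the lowest of its group for 50 of the 59 genes.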

How the results depend on the processing

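Day 7 results varied least. Against sham 55 genes were higher in each alternative and with each heart left out, and between day 1 and day 7 the count ran from 53 to 58. The count lower on day 7, which is *Pttg1*, went from 1 to 0 with library size alone and with limma on log2(TPM + 1) or log2(TPM + 0.1). Day 1 results were sensitive. From 29 genes higher the count went to 45 with library size alone, which moved the median log2 FC of all genes to 0.26, and to 4 with limma on log2(TPM + 1), a scale that compresses genes below 1 TPM, and was 37 with a pseudocount of 0.1. With each heart left out the count ran from 23, beside 1109 of 15598 genes, to 44, beside 1199 of 15608, the latter without the first sham heart. The lower limit of the day 7 against day 1 count with a heart left out was 54, without the second day 1 heart, where *Cenpk* was not called. Without a FC minimum, 4 genes were lower on day 1 and 1 between day 1 and day 7.

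Signs changed for 4 genes, each not called in that comparison. On day 1 *Mad2l1* (-0.01) was 0.26 with library size alone, 0.0065 without the filter, 0.18 and 0.24 by limma with pseudocounts of 1 and 0.1, and -0.11 to 0.11 with a heart left out. *Kif15* was -0.35 and -0.50 by limma with pseudocounts of 1 and 0.1, and *Nusap1* was 0.044 with 0.1. On day 7 *Cenpf* ran from -0.078 to 0.23 with a heart left out. The causes were not tested.

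Replicate numbers mark different mice, and deviations of same-numbered hearts correlated between -0.244 and 0.229. A replicate block gave 31, 55 and 55 genes higher in the 3 comparisons, beside 1180, 2341 and 1304 of all 15306 genes. Counts in sham hearts were few, with a median of 11 per gene and heart among the 55 genes that rose.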

Other observations

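Of the 69 other mitotic genes, 19 were not called on day 7, with sham means from 0.520 CPM for *Cenpw* to 279 CPM for *Cenpb*. *Cenpb*, a centromere DNA-binding protein, had a mean of 279 CPM on day 1 and 206 on day 7. *Zwint*, a kinetochore protein, had 56.5, 77.2 and 46.7 CPM. *Sgo2a* had 13.3, 9.24, 17.6 and 13.3 CPM in the sham hearts, 5.24, 3.73, 5.66 and 6.78 on day 1, and 9.03, 12.4, 11.7 and 11.1 on day 7. Its day 1 hearts lay below all other hearts, with a log2 FC of -1.32 (adjusted p = 2.17e-04) on day 1 and 1.05 (adjusted p = 7.24e-04) between day 1 and day 7. *Cenpa* also had its lowest mean on day 1. *Hjurp*, the chaperone that places CENP-A at centromeres, had 30.9, 31, 28.8 and 30.6 CPM in the sham hearts, 39.7, 41.9, 38.5 and 31 on day 1 and 79.6, 74, 70.2 and 86.4 on day 7, a log2 FC of 1.35 (adjusted p = 1.002e-07) on day 7. These genes were picked after their values were seen.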
